A study of Mus musculus with 4 samples.

Results

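Liver gene expression without Chrebp was compared with that of wild-type (WT) animals after both had eaten fructose for 2 weeks. The comparison takes 2 of the 4 microarrays of the series and the 23521 of 41345 probe sets that carry 1 gene symbol, which stand for 22180 genes. The array called the null pool here held liver RNA combined from 6 Chrebp-/- mice, and its reference, the 2-week WT pool, held that of 4 WT mice. Both groups ate a 70% fructose diet for 2 weeks. The other arrays held RNA of 7 WT mice on regular chow and of 7 WT mice after 3 weeks on the fructose diet, and they are used to show where each gene's level stands. All mice were of the C57BL/6 strain, were older than 2 months and had free access to food and water. Males and females were used in each group, in proportions not given in the sources used here. How the null allele was made, and whether the WT mice were littermates, are points not given in the sources used here. Each group is 1 array of pooled RNA, so a difference has no replicate, no standard deviation and no test, and genotype, mice and array cannot be told apart.

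ChREBP, the product of Mlxipl, is a transcription factor that senses sugar metabolites. With its partner Mlx it binds carbohydrate response elements, which are paired E-box sequences near the start of genes for sugar breakdown and fat synthesis. The liver clears much of the fructose that is absorbed and feeds it into the lower part of glycolysis, so a fructose diet is a common way to load this pathway.

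Levels are deposited log2 expression values, and a difference is the log2 level of the null pool minus that of the 2-week WT pool unless another reference is named. Genes were assessed where the higher of both levels reached a floor of 3.52, which is the median gene's mean level over the arrays. This left 11631 genes. Of these, 236 were higher in the null pool by 2-fold or more (2.03%) and 166 lower by as much (1.43%), so 58.7% of these were higher. With levels under the floor raised to it (floored), 171 were higher (1.47%) and 133 lower (1.14%). A gene that passed the floor through its higher array alone had to differ, and floored values are given beside the genes named where that applies. Counts for a gene list are over its assessed members, and members below the floor on both arrays are not read. The median difference over the assessed genes was 0.10, with the middle 50% between -0.10 and 0.31, so a list median near 0.10 is that of the typical gene. Of these genes 7377 had a difference above 0 and 4249 one below, which is the background for any count of members by sign. Centring the arrays on their medians moved that median to -0.01 and gave 155 higher and 209 lower genes (42.6% higher). Quantile normalization gave 181 and 180 (50.1%), and taking out the trend of differences with level 140 and 225 (38.4%). A floor at the upper quartile left 87 and 110 (44.2%). Between the WT fructose pools, which differ in weeks and mice and are not replicates, 148 of 11648 genes were at least 2-fold higher at 3 weeks (1.27%) and 128 lower (1.10%). Against the 3-week WT pool 398 of 11772 genes were at least 2-fold higher in the null pool (3.38%) and 230 lower (1.95%), and against chow 194 of 11720 were higher (1.66%) and 168 lower (1.43%). These differences share the null array, so they are not separate checks. The 2-week WT pool had 10869 genes at or above the floor, the null pool 11239. Of 3458 genes with a mean level between the floor and 5, 100 were higher and 32 lower, while of 1853 genes at 8 or above 20 were higher and 39 lower. The direction of the excess thus turned with the level of the genes.

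**Figure D1:**
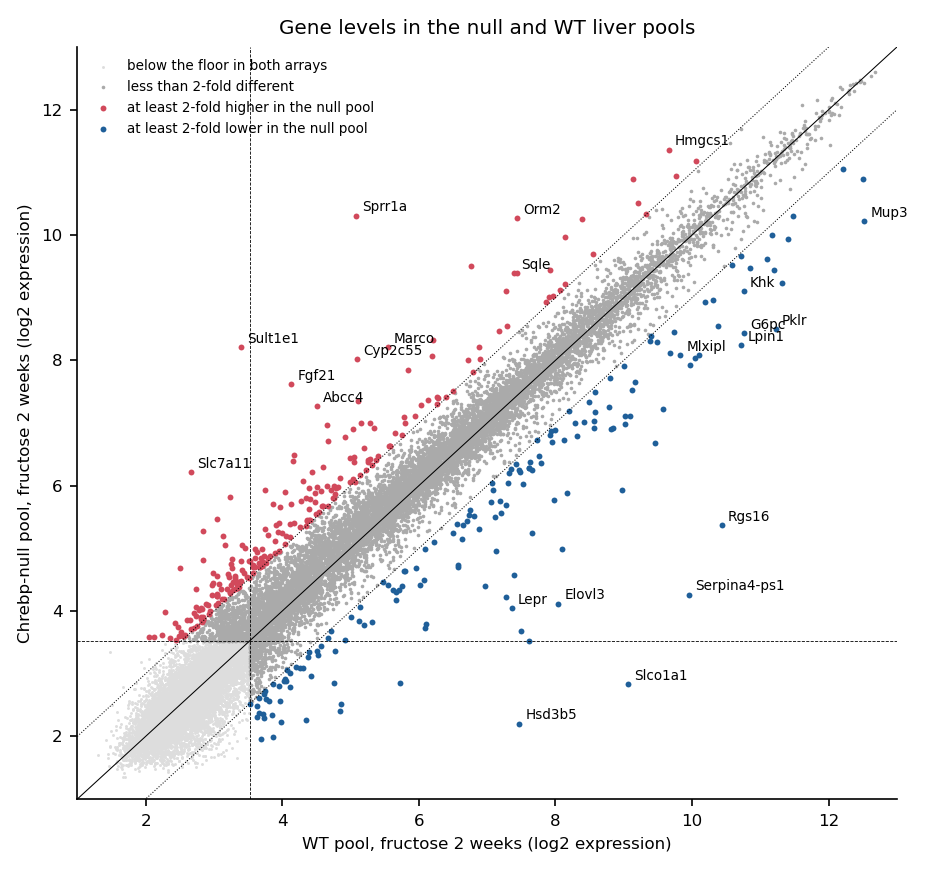
Log2 level of each of 22180 genes in the 2-week WT pool (horizontal axis) and in the null pool (vertical axis), 1 array each. Dashed lines mark the floor of 3.52, dotted lines a 2-fold difference. Red points (236) were at least 2-fold higher and blue points (166) lower by as much, and Serpina4-ps1, Slco1a1, Rgs16 and Hsd3b5 lie farthest below the diagonal.

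The targeted gene and its partners come first. Mlxipl read 9.25 on chow, 9.64 after 3 and 9.83 after 2 weeks of fructose in WT livers, and 8.09 in null livers. The null pool was the lowest of the 4 arrays, 3.34-fold under the 2-week WT pool, with signal well above the floor. The stretch of Mlxipl that the probe set reads was not given in the sources used here. Mlx, the DNA-binding partner, differed by 0.06, and Mlxip, which encodes the related sensor MondoA, by -0.13. Txnip and Arrdc4, arrestin-family genes that both sensors control, differed by -0.34 and -0.24. Among these 5 genes Mlxipl was the one past 2-fold.

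Of 23 known ChREBP targets on the array, which include genes of sugar breakdown and of fat synthesis and were all assessed, 14 were lower in the null pool by 2-fold or more and 1 was higher, with a median of -1.19. The list was drawn up with earlier results of these data known. Pklr, liver pyruvate kinase, read 9.90 on chow, 10.41 after 3 and 11.22 after 2 weeks of fructose in WT livers, and 8.50 in null livers. Its null level was 6.59-fold under the 2-week WT pool and under every other array as well. Khk, ketohexokinase, which takes the first step of fructose breakdown, read 9.91, 10.51, 10.76 and 9.11 in the same order. Tkfc, the kinase for glyceraldehyde from fructose, read 9.62, 9.89, 10.39 and 8.55. For both kinases the null pool was again the lowest of the 4 arrays and the 2-week WT pool the highest. The other 4 genes of fructose uptake and breakdown lay under 2-fold. Slc2a2 (GLUT2) stood at -0.71, Slc2a5 (GLUT5) at -0.28, Slc2a8 at 0.15 and Glyctk, glycerate kinase, at 0.10. The median of these 6 genes was -0.49.

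Promoters of Pklr and Khk are shown because both genes were lower in the null pool and carry letters that ChREBP and other E-box factors can bind. The 250 bases before each RefSeq start (GRCm38.p6) run 5′ to 3′ on the gene's strand. Pklr lies at chr3:89136373-89136622, plus strand, and the capitals mark a carbohydrate response element at -170 to -154 from the start. Khk lies at chr5:30921309-30921558, plus strand, and the capitals mark an E-box, CACGTG, at -71 to -66.
Pklr: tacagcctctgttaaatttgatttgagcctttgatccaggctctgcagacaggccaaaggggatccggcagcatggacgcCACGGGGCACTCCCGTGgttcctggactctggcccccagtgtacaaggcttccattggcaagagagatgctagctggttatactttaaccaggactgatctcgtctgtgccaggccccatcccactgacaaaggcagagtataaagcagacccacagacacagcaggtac
Khk: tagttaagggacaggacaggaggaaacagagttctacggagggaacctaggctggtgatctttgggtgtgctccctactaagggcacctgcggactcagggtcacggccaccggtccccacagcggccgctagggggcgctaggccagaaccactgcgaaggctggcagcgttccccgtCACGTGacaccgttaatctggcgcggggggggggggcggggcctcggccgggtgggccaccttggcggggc
The search covered both strands from 250 bases before to 50 after each start. The carbohydrate response element was in 0.119% of 32851 RefSeq windows and CACGTG in 7.15%. Of the 74 genes at least 2-fold lower (levels floored) that have a window, Pklr alone held the element and 10 held CACGTG (13.5%), beside 11.8% of 9178 assessed genes with a window. A match is a description of letters and not evidence of binding.

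Glycolysis as a whole did not follow Pklr. Of 20 glycolysis genes 3 were at least 2-fold lower and 1 higher, with a median of -0.03. Pfkfb3, which makes the activator of phosphofructokinase, read 4.97, 5.005, 5.71 and 4.33 on chow, after 3 and 2 weeks in WT and in null livers, a difference of -1.38. Gpd2, the mitochondrial glycerophosphate dehydrogenase, read 6.83, 7.75, 7.62 and 6.37. Both were lowest in the null pool. Aldoc, an aldolase, was higher, at 6.39, 5.34, 5.58 and 6.63, but its null level lay only slightly over chow, and with centred arrays it stood at 0.95, which left no glycolysis gene 2-fold higher. Gapdh, Pgk1 and Pkm stood at -0.10, 0.15 and 0.01.

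Glucose release showed the same split between single enzymes. G6pc, glucose-6-phosphatase, read 9.999 on chow, 10.70 after 3 and 10.76 after 2 weeks of fructose in WT livers, and 8.43 in null livers, 5.03-fold under the 2-week WT pool. Fbp1, fructose-1,6-bisphosphatase, read 10.96, 11.19, 11.18 and 9.996. Both were lowest in the null pool, while Pck1, the cytosolic PEP carboxykinase, stood at -0.09 and Pcx at -0.50. In all, 2 of 9 gluconeogenesis genes were lower, with a median of -0.09. Of 14 glycogen genes, Pygl, the liver phosphorylase, was at least 2-fold lower (-1.28), Gys2, the liver glycogen synthase, stood at -0.83 and Gyg at 0.82. The glycogen median was -0.20, and of 8 genes of the pentose phosphate pathway and NADPH supply Me1 alone was past 2-fold, with a median of -0.01.

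Of 13 assessed genes for turning acetyl units into fatty acids (14 on the array), 7 were lower in the null pool by 2-fold or more and none higher, with a median of -1.07. The list shares genes with that of ChREBP targets, such as Acaca, so the counts of both are not separate results. Fasn, fatty acid synthase, read 10.15 on chow, 10.65 after 3 and 11.40 after 2 weeks of fructose in WT livers, and 9.94 in null livers. Its null level was the lowest and 2.75-fold under the 2-week WT pool. Acly, ATP citrate lyase, read 9.64, 10.06, 10.58 and 9.52, and Acaca, acetyl-CoA carboxylase, read 7.92, 9.12, 9.48 and 8.30. The null level of Acaca lay above chow, and that of Acly slightly below it, so these are differences from the WT fructose pools rather than from chow. Me1, malic enzyme, stood at -1.76, Acacb at -1.53, Thrsp, a lipogenic regulator, at -1.47 and Srebf1, the insulin-driven lipogenic factor, at -1.55. Slc25a1, the citrate carrier, and Acss2 stood at 0.15 and 0.33. Against the 3-week WT pool 3 of the 13 genes were at least 2-fold lower, with a median of -0.70, and against chow 1, with a median of -0.21. The null array enters all of these differences.

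Elongases and desaturases went different ways. Elovl3, which makes very long chain fatty acids, read 8.19 on chow, 8.80 after 3 and 8.04 after 2 weeks of fructose in WT livers, and 4.12 in null livers. All WT arrays lay far above the null level, which was near the floor. Elovl7 read 3.51, 3.15, 3.23 and 5.81, and with its WT level set at the floor it was at least 4.90-fold higher. Elovl6 stood at -1.18 and Fads3 at 1.23, while the major desaturases Scd1, Fads1 and Fads2 lay between -0.24 and 0.03. Over 14 genes 2 were higher and 2 lower, with a median of -0.01.

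Most of the 25 assessed triglyceride and lipid droplet genes lay under 2-fold, while 3 were lower and 2 higher, with a median of 0.11. Lpin1, the phosphatidate phosphatase that makes diacylglycerol, read 9.86 on chow, 10.50 after 3 and 10.72 after 2 weeks of fructose in WT livers, and 8.24 in null livers, 5.59-fold lower than in the 2-week WT pool. Pnpla3, a lipid droplet lipase, read 3.12, 6.49, 5.20 and 3.78, and its null level lay near the floor and near chow. Mgll, monoacylglycerol lipase, stood at -1.26. Cidec, which enlarges lipid droplets, read 4.67, 5.72, 5.04 and 6.38, and Gpat3, an acyltransferase of the first step, read 6.70, 5.94, 5.65 and 6.84. The null level was the highest for both, although that of Gpat3 exceeded chow by little. Plin2, the droplet coat protein, stood at -0.04 and Dgat2 at -0.67. Fabp5, a fatty acid binding protein, read 6.12, 8.55, 7.76 and 6.47, lower than in both WT fructose pools and above chow. Lpl, lipoprotein lipase, read 6.37, 5.40, 6.27 and 7.42 and was highest in the null pool. Of 11 genes of fatty acid uptake and binding 2 were higher and 1 lower, with a median of -0.10, and Slc27a1, one of the 2, is at 0.92 once its WT level is set at the floor.

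**Figure D2:**
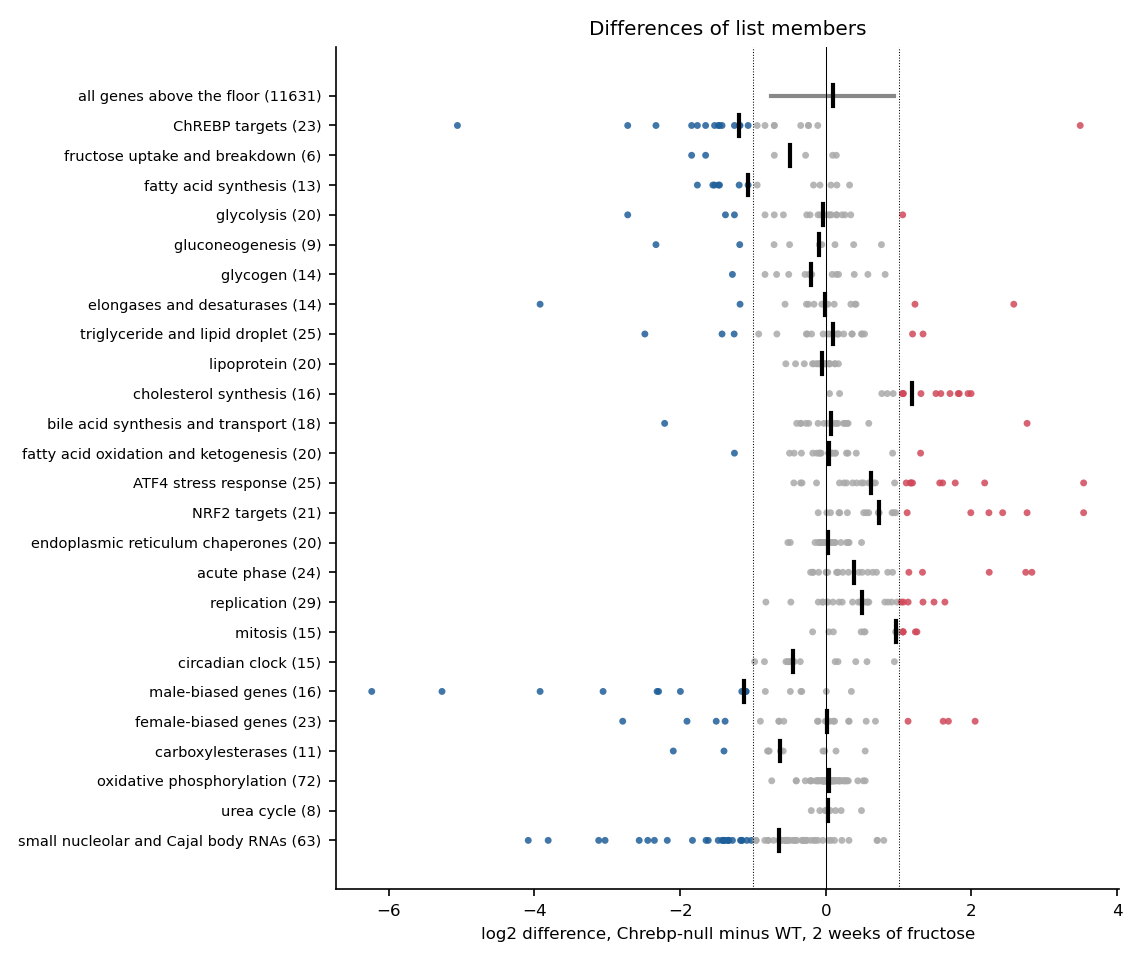
Differences of the assessed members of 25 gene lists, null pool minus 2-week WT pool (log2, horizontal axis), 1 row per list with the number of members. Each point is 1 gene, red or blue where at least 2-fold higher or lower, black bars are medians, and the grey bar of the top row spans the 2.5 to 97.5 percentiles of all 11631 genes. ChREBP targets, fatty acid synthesis and male-biased genes lie mostly to the left, and cholesterol synthesis lies wholly to the right of 0.

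Of 16 assessed genes of cholesterol synthesis 11 were at least 2-fold higher in the null pool than in the 2-week WT pool and none lower, with a median of 1.19. Centring the arrays gave 8, with Mvk and Dhcr7 at 0.95. Hmgcs1, which makes hydroxymethylglutaryl-CoA, read 10.61 on chow, 8.94 after 3 and 9.66 after 2 weeks of fructose in WT livers, and 11.36 in null livers. Sqle, squalene epoxidase, read 8.73, 7.52, 7.40 and 9.40, and Lss, lanosterol synthase, read 8.06, 6.79, 7.28 and 9.10. For these genes the WT fructose pools were low, chow lay between, and the null pool was highest. Mvd stood at 1.58, Mvk at 1.06, Dhcr7 at 1.06, Fdft1 at 0.93 and Sc5d at 0.05. Against chow 1 of the 16 genes was at least 2-fold higher and the median was 0.49. Srebf2, which encodes the factor that drives this pathway, read 7.29, 6.18, 6.95 and 7.94. It stood just short of 2-fold, at 0.99. None of the 10 genes of SREBP2 control and sterol transport passed 2-fold, with a median of -0.24. Insig1, a sterol sensor of the pathway, stood at 0.51, and the sterol exporters Abcg5 and Abcg8 at -0.44 and -0.57.

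The Hmgcs1 promoter is shown because the gene is the entry to the pathway and its window holds letters that match a sterol response element. It lies at chr13:119690101-119690350, plus strand (RefSeq, GRCm38.p6), and the capitals mark a match to TCACNCCAC at -137 to -129.
Hmgcs1: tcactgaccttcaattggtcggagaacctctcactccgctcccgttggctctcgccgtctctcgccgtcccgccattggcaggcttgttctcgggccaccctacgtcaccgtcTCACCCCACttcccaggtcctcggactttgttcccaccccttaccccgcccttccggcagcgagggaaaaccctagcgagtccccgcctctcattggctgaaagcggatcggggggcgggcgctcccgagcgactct
The motif was in 1.24% of all windows and, of the 13 cholesterol synthesis genes with a window, in that of Hmgcs1 alone.

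Bile acid genes differed singly. Cyp8b1, the sterol 12-alpha-hydroxylase that sets the share of cholic acid, read 8.21 on chow, 8.07 after 3 and 7.98 after 2 weeks of fructose in WT livers, and 5.77 in null livers, 4.63-fold lower than in the 2-week WT pool. Abcc4, an efflux pump for bile acids and drugs at the sinusoidal membrane, read 4.86, 4.46, 4.51 and 7.27 and was 6.80-fold higher. For both genes the WT arrays lay close together, with the null pool apart. Cyp7a1, the rate-limiting enzyme of bile acid synthesis, stood at 0.31 and Cyp27a1 at 0.17. Nr1h4, the bile acid receptor FXR, stood at -0.40 and its target Nr0b2 at -0.23. Slc10a1 and Abcb11, the main bile acid importer and exporter, stood at -0.27 and 0.02. Over 18 genes 1 was higher and 1 lower, with a median of 0.07 that turned to -0.04 with centred arrays.

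Fgf21, a hormone the liver secretes under sugar loading and nutrient stress, was the 1 ChREBP target that was higher. It read 2.92 on chow, 3.96 after 3 and 4.13 after 2 weeks of fructose in WT livers, and 7.63 in null livers. The chow level lay below the floor, the WT fructose pools just above it, and the null pool was 11.3-fold over the 2-week WT pool. Its promoter is shown because it holds letters of both a ChREBP-type E-box and an amino acid response element bound by ATF4. The 250 bases lie at chr7:45615491-45615740, minus strand (RefSeq, GRCm38.p6). The capitals mark CACGTG at -50 to -45 and, on the opposite strand, TGATGCAA at -139 to -132.
Fgf21: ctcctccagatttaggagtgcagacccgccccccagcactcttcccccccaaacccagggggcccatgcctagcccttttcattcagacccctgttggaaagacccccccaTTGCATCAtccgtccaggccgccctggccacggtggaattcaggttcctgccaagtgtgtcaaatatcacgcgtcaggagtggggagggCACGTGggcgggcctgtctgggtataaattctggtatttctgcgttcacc
Klb, the co-receptor for FGF21, stood at -0.51, and Fgfr1 to Fgfr4 lay between -0.55 (Fgfr2) and 0.24 (Fgfr1). None of these 5 genes passed 2-fold. Among 16 liver hormone genes, Fst, follistatin, read 4.35, 3.80, 3.53 and 4.79 and Inhba, an activin subunit, read 5.51, 5.26, 6.64 and 5.38. Fst was highest in the null pool, whereas Inhba was high in the 2-week WT pool alone and near the chow level in the null pool. The median of the 16 was 0.07, and Igfbp1 and Igf1 stood at 0.43 and -0.31. None of 15 insulin signalling genes passed 2-fold, with Irs2 at 0.55 and Insr at -0.24.

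Lepr, the leptin receptor, was among the largest losses. It read 5.10 on chow, 7.005 after 3 and 7.36 after 2 weeks of fructose in WT livers, and 4.04 in null livers. Both WT fructose pools lay well above chow, and the null pool lay below chow, 9.98-fold under the 2-week WT pool. In the list of growth hormone signalling genes, which holds Lepr, Bcl6 was the other gene past 2-fold. Bcl6, a repressor in male-pattern liver expression, read 7.11, 5.45, 7.28 and 5.70. Its null level was close to that of the 3-week WT pool, and both lay below the chow and the 2-week WT pools. Ghr, the growth hormone receptor, stood at -0.58, Stat5b at -0.18, Socs2 at -0.05, and Socs3 was higher by 0.70. Of 13 genes 12 had a difference below 0, with a median of -0.22.

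The ATF4 stress response makes amino acid transporters and biosynthetic enzymes when protein synthesis or amino acid supply is strained. Of its 25 assessed genes 9 were at least 2-fold higher in the null pool and none lower, with a median of 0.62, and 7 were higher with levels floored. Slc7a11, the cystine importer, read 2.45 on chow, 2.79 after 3 and 2.67 after 2 weeks of fructose in WT livers, and 6.21 in null livers. All WT levels lay below the floor, and with that of the reference raised to it the null pool was at least 6.45-fold higher. Another Slc7a11 probe set lay below the floor and differed by 0.10. Asns, asparagine synthetase, read 4.65, 4.35, 4.44 and 6.22, and Atf3, a stress-induced transcription factor, read 4.25, 4.27, 3.75 and 5.94. In each case the WT arrays lay close together and the null pool stood above them. Nupr1, Ddit3 (CHOP), Cth and Slc3a2 stood at 1.57, 1.17, 1.16 and 1.11. Cth, cystathionine gamma-lyase, read 10.75, 9.74, 9.77 and 10.94, so its null level matched chow and the WT fructose pools were the low ones. Atf4 itself stood at 0.68, Trib3 at 0.52, Phgdh at -0.34 and Sesn2 at -0.44. Slc1a4, a neutral amino acid transporter outside the list, read 4.71, 4.40, 4.17 and 6.49 and was 4.98-fold higher.

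The Slc7a11 promoter is shown because it carries the ATF4-type element on both strands. It lies at chr3:50443614-50443863, minus strand (RefSeq, GRCm38.p6). The capitals mark TGATGCAA at -66 to -59 and its reverse at -47 to -40.
Slc7a11: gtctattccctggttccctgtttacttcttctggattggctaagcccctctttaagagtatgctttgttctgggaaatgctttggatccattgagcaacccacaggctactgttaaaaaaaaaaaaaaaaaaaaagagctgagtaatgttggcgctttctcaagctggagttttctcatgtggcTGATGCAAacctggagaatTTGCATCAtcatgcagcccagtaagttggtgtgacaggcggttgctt
TGATGCAA, on either strand, was in 0.895% of all windows. Of 138 genes at least 2-fold higher (levels floored) with a window 6 held it (4.35%), namely Atf3, Fgf21, Map3k13, Nupr1, Slc1a4 and Slc7a11, beside 0.795% of 9178 assessed genes. Of 22 ATF4 response genes with a window 5 held it. The motifs were chosen with results known, so these shares describe the windows and support nothing.

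Lists of other branches of protein stress held no gene past 2-fold. This is near the share over all assessed genes, of which 2.03% were higher and 1.43% lower. None of 20 endoplasmic reticulum chaperone genes passed 2-fold, with a median of 0.03. Hspa5, the chaperone BiP, stood at 0.32, Dnajb9 at 0.49 and Herpud1 at -0.49. Xbp1, the factor of that response, stood at -0.09. None of 10 heat shock genes and none of 36 proteasome genes passed 2-fold, with medians of 0.17 and 0.14. Hsp90aa1 stood at 0.55 and Psmd10 at 0.50.

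NRF2 targets detoxify electrophiles and restore glutathione. Of 21 assessed genes 6 were at least 2-fold higher in the null pool, none lower, and 20 had a difference above 0, with a median of 0.73. Slc7a11 and Abcc4, described above, are 2 of the 6. Srxn1, sulfiredoxin, read 5.27 on chow, 4.66 after 3 and 5.11 after 2 weeks of fructose in WT livers, and 7.35 in null livers. Nqo1, a quinone reductase, read 5.79, 5.36, 5.85 and 7.84. Cbr3, a carbonyl reductase, read 3.05, 2.65, 2.85 and 5.28, below the floor in each WT array, and was at least 3.38-fold higher in the null pool. For these genes the WT arrays, with or without fructose, lay together and the null pool stood apart. Ugdh, UDP-glucose dehydrogenase, was the other gene past 2-fold, at 1.12. Gclc and Gclm, the subunits of the enzyme that starts glutathione synthesis, stood at 0.52 and 0.19, Hmox1 at 0.56 and Nfe2l2, which encodes NRF2, at 0.18. Against the 3-week WT pool 16 of the 21 were at least 2-fold higher and against chow 10. Of 18 glutathione S-transferases Gstm4 was past 2-fold (1.26), Gsta4 stood at 0.93 and Gstp3 at -0.81, and the median was 0.28. Mt2 and Mt1, metallothioneins, stood at 0.98 and 0.59. In their list of 14 metal, iron and heme genes Id1 was past 2-fold (1.11, or 0.95 with the trend removed), with a median of 0.35.

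Sprr1a, which encodes a small proline-rich protein of the cornified envelope, had the largest difference above 0 among the named genes. It read 3.37 on chow, 3.61 after 3 and 5.08 after 2 weeks of fructose in WT livers, and 10.31 in null livers. The chow level lay below the floor, the 3-week WT level just above it, and the null pool was 37.4-fold over the 2-week WT pool. Jun, an AP-1 subunit, read 6.36, 5.60, 6.20 and 8.32 and was 4.34-fold higher. Marco, a scavenger receptor of macrophages, read 5.84, 4.95, 5.55 and 8.21. Both were highest in the null pool, and for both the WT arrays lay below it at every diet. Tuba8, an alpha tubulin, read 4.65, 4.41, 4.65 and 6.96, while another probe set of Tuba8 below the floor differed by -0.22. Cmah, which makes the sialic acid Neu5Gc, read 9.76, 10.20, 10.10 and 8.09 and was 4.02-fold lower. Keg1, an acyltransferase-like gene of kidney and liver, read 9.52, 9.28, 9.02 and 6.98, with a dimmer probe set at -0.19. Serpina4-ps1, a serpin pseudogene, read 9.15 on chow, 10.19 after 3 and 9.96 after 2 weeks of fructose in WT livers, and 4.26 in null livers. Its null level was close to the floor and 51.8-fold under the 2-week WT pool. Rgs16, which switches off G protein signals and is on the list of ChREBP targets above, read 9.10, 10.08, 10.43 and 5.38, a 33.3-fold lower level. Of 10 assessed RGS genes it was the one past 2-fold, and the median was -0.19.

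**Figure D3:**
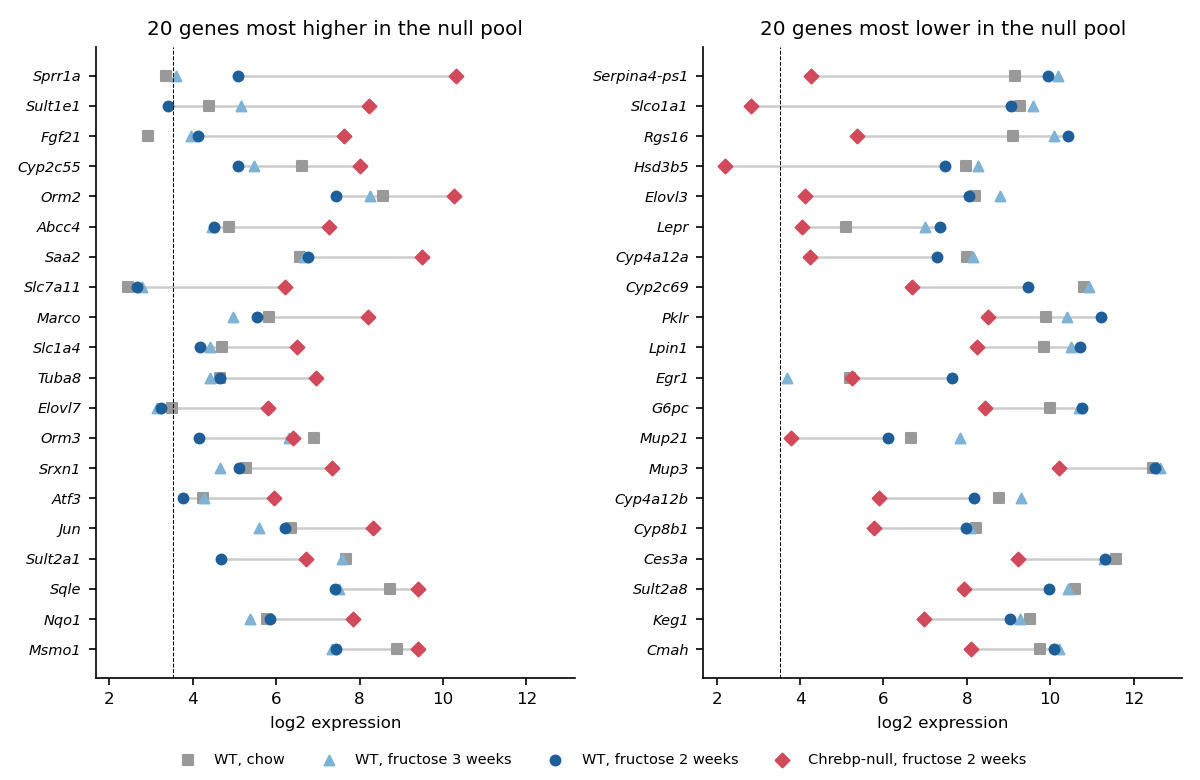
Log2 level on each of the 4 arrays for the 20 genes with the largest difference above 0 (left) and the 20 with the largest below 0 (right), ranked with levels under the floor (dashed line, 3.52) raised to it. Small non-coding RNAs and genes with no described function were left out of the ranking, although some, such as Snora34, had larger differences than genes shown. Grey squares are WT on chow, light triangles WT after 3 weeks and dark circles WT after 2 weeks of fructose, red diamonds the null pool. For Orm3 and Sult2a1 the null level is within the range of the WT arrays, and for Egr1 the 2-week WT level is the one that stands apart.

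Enzymes that conjugate and oxidise steroids and drugs held several of the largest differences. Sult1e1, estrogen sulfotransferase, read 4.39 on chow, 5.15 after 3 and 3.40 after 2 weeks of fructose in WT livers, and 8.22 in null livers. With its reference level, under the floor, raised to it, the null pool was at least 25.9-fold higher, and it was above the other WT arrays as well. Sult2a1 read 7.67, 7.57, 4.67 and 6.72, so the 2-week WT pool was low and the null pool was -0.85 from the 3-week pool. Sult2a8, a bile acid sulfotransferase, read 10.59, 10.43, 9.96 and 7.92, lowest in the null pool. Sult1c2 stood at -1.57 and Sult1a1 at 0.61. Of 12 assessed sulfotransferases 4 were higher and 2 lower, but 9 of 15 were at least 2-fold higher in the 3-week than in the 2-week WT pool. The Sult2a genes are close copies that probes may not separate.

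Among cytochromes of the Cyp2 family 3 of 33 were higher and 4 lower, with a median of -0.09. Cyp2c55 read 6.61, 5.47, 5.10 and 8.02, highest in the null pool, while its other probe set differed by -0.93, so the gene's direction is uncertain. Cyp2c69 read 10.80, 10.94, 9.46 and 6.67, Cyp2b13 9.86, 8.93, 8.81 and 6.91 and Cyp2a4 11.15, 11.31, 10.85 and 9.47. For all of these the null pool was the lowest of the 4 arrays. Cyp2a5, a coumarin hydroxylase, stood at 1.29. Cyp3a59 was the 1 of 5 Cyp3a genes past 2-fold, at 7.51, 6.06, 6.20 and 8.07, and Cyp3a11, the main one in mouse liver, stood at 0.52. Of 12 Cyp4 genes, which hydroxylate fatty acids, Cyp4a12a and Cyp4a12b were past 2-fold and lower, and Cyp4a14 stood at 0.31. Cyp1a2 and Ahr stood at 0.38 and 0.53. Members of these families are similar in sequence, and their single values are uncertain for that reason.

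Carboxylesterases cleave ester drugs and lipids. Of 11 genes 9 had a difference below 0 and 2 were lower in the null pool by 2-fold or more, with a median of -0.62. Ces3a read 11.58, 11.29, 11.32 and 9.23 and Ces3b 9.42, 9.37, 8.58 and 7.18, both lowest in the null pool. The Ces genes are close copies that probes may not separate. Ces1d, a lipase of stored triglyceride, stood at -0.62. Ugt3a1 was the 1 of 8 UDP-glucuronosyltransferases past 2-fold, at -1.59, with a median of -0.32. Of 4 flavin monooxygenases none passed 2-fold. Slco1a1 read 9.27 on chow, 9.58 after 3 and 9.07 after 2 weeks of fructose in WT livers, and 2.83 in null livers. This importer of organic anions was below the floor in the null pool only and at least 46.7-fold lower. It is also on the list of male-biased genes below. Slco1a4, a related importer, read 8.999, 7.63, 8.14 and 9.22, so that its null level was near chow, and its difference of 1.09 fell to 0.98 with centred arrays. The other 9 of 11 assessed transporters lay under 2-fold, between -0.88 (Slc22a30) and 0.56 (Slc22a27). Akr1c18, a progesterone-inactivating reductase, read 3.53, 6.10, 3.16 and 5.05, at least 2.89-fold higher than in the 2-week WT pool and lower than in the 3-week one. Of 20 steroid dehydrogenases and reductases 2 were higher and 1 lower, with a median of -0.19.

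Of 16 assessed genes that male mouse liver expresses more than female liver (male-biased), 10 were lower in the null pool by 2-fold or more and none higher, with a median of -1.12. Hsd3b5, a steroid dehydrogenase, read 7.99 on chow, 8.27 after 3 and 7.47 after 2 weeks of fructose in WT livers, and 2.20 in null livers, at least 15.5-fold lower with the null level set at the floor. Cyp4a12a read 8.002, 8.16, 7.28 and 4.23, and Serpina1e 10.80, 10.32, 10.04 and 8.05. Selenbp2 read 9.63, 8.70, 7.99 and 6.89, and Nudt7 stood at -1.10. The null pool was the lowest of the 4 arrays for each of these 5 genes. Slco1a1, given above, and Mup20, given below, are also on this list, so their losses are counted here too and are not separate results. Serpina1e has close copies that probes may not separate. Cyp7b1, also male-biased, read 9.15, 8.46, 7.02 and 6.68, and the 2-week WT pool was already low. Gstp1 stood at 0.01 and Susd4 at 0.35.

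Female-biased genes were split. Of 23 assessed genes 4 were higher and 4 lower, with a median of 0.01. Cyp2c69, Cyp2b13 and Cyp2a4, given above, were lower, as was A1bg, at -1.50 (-0.33 with its null level floored). Sult2a1, Sult2a2, Sult2a5 and Atp6v0d2 were higher, and all 4 had their lowest level in the 2-week WT pool. Atp6v0d2, a proton pump subunit, read 6.84, 4.71, 3.97 and 5.66. Between the WT fructose pools 12 of 27 female-biased genes were at least 2-fold higher at 3 weeks, and against the 3-week pool 14 of 27 were lower in null livers by 2-fold or more, with a median of -1.02.

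Sex-linked genes differed between the pools. Xist, made from the inactive X chromosome of female cells, read 8.84 on chow, 8.77 after 3 and 8.56 after 2 weeks of fructose in WT livers, and 7.04 in null livers, a difference of -1.53. The Y-linked genes Eif2s3y, Kdm5d and Uty were higher in the null pool by 0.84, 0.76 and 0.53. The null pool thus had the lowest Xist and the highest Y-linked levels of the 4 arrays, while 10 of 16 male-biased liver genes were at least 2-fold lower there than in the 2-week WT pool. Leaving out the sex-linked and sex-biased lists gave 232 higher and 151 lower genes. This takes only the listed genes out of the counts, with 11588 assessed genes left, so it is not a test of the sexes. The part of the sexes in the other results was not tested.

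**Figure D4:**
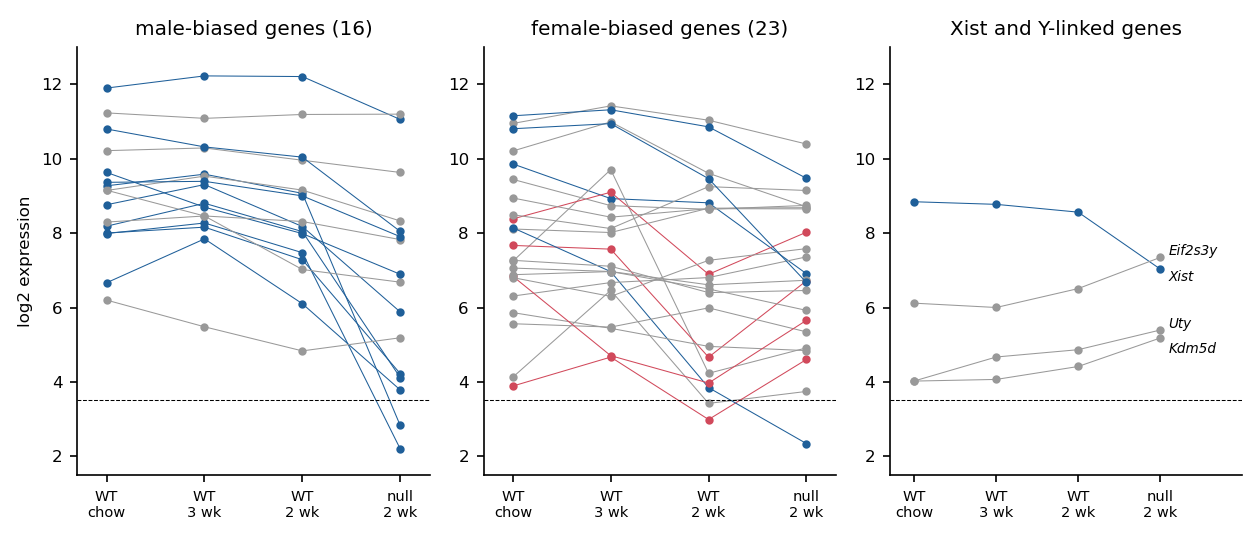
Log2 level of each assessed male-biased gene (left, 16 genes), female-biased gene (middle, 23) and Xist and Y-linked gene (right, 4) on the 4 arrays, with the floor dashed. Lines join the values of 1 gene, blue where at least 2-fold lower and red where at least 2-fold higher in the null than in the 2-week WT pool. The 10 blue male-biased genes drop at the null pool, and Xist crosses below Eif2s3y there.

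Among secreted liver proteins some acute phase genes were higher and urinary protein genes lower in the null pool. Of 24 acute phase genes 5 were at least 2-fold higher and none lower, with a median of 0.38. Orm2, an acid glycoprotein, read 8.55, 8.26, 7.44 and 10.27, and Saa2, a serum amyloid protein, read 6.56, 6.66, 6.76 and 9.51. For both the null pool was the highest of the 4 arrays. Orm3 read 6.91, 6.31, 4.15 and 6.40, so its 2-week WT level was the exception. Lcn2, lipocalin, read 7.61, 7.35, 8.55 and 9.69 and Apcs 7.03, 7.74, 6.88 and 8.21. Crp, Hp and Saa3 stood at 0.15, 0.46 and 0.17. The related Orm and Saa copies may share probes. None of 17 complement genes passed 2-fold, and 15 had a difference below 0, with a median of -0.22. C8a, a subunit of the membrane attack complex, stood at -0.89. F11, coagulation factor XI, was the 1 of 18 coagulation genes past 2-fold, at -1.09, and their median was -0.13. Of 20 serpins 1 was higher and 3 lower (none and 2 with levels floored), with a median of -0.09. The 3 assessed major urinary protein genes were all lower. Mup3 read 12.46, 12.64, 12.52 and 10.22, Mup20 11.90, 12.22, 12.21 and 11.05 and Mup21 6.67, 7.84, 6.10 and 3.79, with the null pool lowest for each. The Mup genes are close copies that probes may not separate, so these 3 values may not be separate results.

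Markers of other liver cells were examined beside these values. Bulk RNA does not separate fewer cells of a type from less RNA per cell. Of 12 Kupffer cell and macrophage markers Marco alone passed 2-fold, and the summed linear level of the 12 was 2253 in the 2-week WT and 2475 in the null pool. Without Marco it was 2206 and 2180. Adgre1, Clec4f and Timd4 stood at -0.45, -0.22 and -0.14. Of 10 sinusoidal endothelial markers Lyve1 was at least 2-fold lower, at 7.07, 7.88, 8.20 and 7.19 on the 4 arrays, and the sum was 2376 and 2030. Of 10 stellate cell and fibroblast markers none passed 2-fold, with sums of 1860 and 1887. The 7 hepatocyte markers summed to 26119 and 25703, and Alb, albumin, stood at -0.08. Cholangiocyte markers summed to 89.4 and 107, with Krt19 and Cftr below the floor on every array, and lymphocyte markers to 114 and 104, with Cd3d, Cd8a, Ms4a1 and Ncr1 below it. None of 5 neutrophil markers reached the floor on any array, and neither did Slc4a1, the 1 erythroid marker on the array. The part of these cells in the other results was not tested. Of 23 chemokine and cytokine genes 3 were higher, with a median of 0.25, and 2 with levels floored or with centred arrays. Against the 3-week WT pool none was higher by 2-fold. Ccl6 read 4.75, 5.04, 4.76 and 5.99, highest in the null pool. Oasl1 was the 1 of 21 interferon-induced genes past 2-fold, at 1.42, and Ifit1 and Gbp9 stood at 0.75 and -0.53. Gpnmb, a lysosomal glycoprotein of lipid-laden macrophages, read 2.94, 3.21, 3.40 and 4.80, at least 2.43-fold higher, and it and Atp6v0d2 were the 2 of 17 lysosomal and autophagy genes past 2-fold. None of 13 collagen and YAP target genes passed it, with Col4a1 at 0.16 and Ccn1 at 0.85.

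Of 29 assessed genes of DNA replication 6 were at least 2-fold higher in the null pool and none lower, with a median of 0.50, and 5 were higher with levels floored, 4 with centred arrays or quantile normalization, 3 with the trend with level removed and 1 with a floor at the upper quartile. The MCM genes encode the helicase loaded at replication origins. Mcm6 read 4.16 on chow, 4.48 after 3 and 4.27 after 2 weeks of fructose in WT livers, and 5.76 in null livers, Mcm4 4.76, 4.74, 4.65 and 5.99, Mcm5 3.53, 3.66, 3.58 and 4.71 and Mcm3 4.84, 4.32, 4.39 and 5.45. In each the null pool was the highest, but Mcm3 lay under 2-fold with centred arrays (0.96), quantile normalization (0.96) and the trend removed (0.91), where Mcm5 also did (0.97). Of 15 mitosis genes 5 were higher and none lower, with a median of 0.97, or 3 and 0.52 with levels floored. Of these genes 2 of 14 were higher with centred arrays, 3 with quantile normalization and 1 with the trend removed. Ccnb2, a mitotic cyclin, read 3.81, 4.77, 3.89 and 5.12 and Ect2, a cytokinesis factor, 4.69, 6.11, 5.04 and 6.11. Ect2 fell under 2-fold with centred arrays (0.96), quantile normalization (0.97) and the trend removed (0.93). The null and the 3-week WT pools were the high ones for both, and against the 3-week pool 1 of the 15 was past 2-fold. Mki67 stood at 0.52 and Birc5, with its WT level floored, at 0.01. Cdkn1a, which encodes the cell cycle inhibitor p21, read 4.53, 5.63, 6.75 and 7.67, with the null pool highest and the 2-week WT pool next. Btg2 was the 1 of 15 p53 targets and cell death genes past 2-fold, at 1.07, and it fell to 0.96 with centred arrays, 0.97 with quantile normalization and 0.93 with the trend removed, where none passed. Myc read 5.98, 6.54, 5.04 and 6.90, and Egfr, the epidermal growth factor receptor, 10.40, 10.64, 10.20 and 8.93, lowest in the null pool. They were the 2 of 14 cyclin and growth factor genes past 2-fold, while Ccnd1, cyclin D1, stood at 0.71. None of 19 ribosome biogenesis genes passed 2-fold, and 17 had a difference above 0, beside 7377 of all 11631 assessed genes, with a median of 0.32 and Nop58 at 0.82. None of 7 clustered histone genes did, while with centred arrays 1 was lower. Of 49 ribosomal protein genes 1 was higher and 1 lower, with a median of 0.05, and none was higher with centred arrays.

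No clock gene passed 2-fold at the deposited scale, while Nr1d1 was past it and lower with centred arrays (-1.08), quantile normalization (-1.01) and the trend removed (-1.03). Of 15 genes 10 had a difference below 0, with a median of -0.45. Nr1d1 (REV-ERB alpha), Dbp and Tef, outputs of the clock's activating arm, stood at -0.98, -0.84 and -0.48. A dimmer Tef probe set differed by 0.67, so the direction of Tef is uncertain. Nfil3, Arntl (BMAL1) and Clock stood at 0.94, 0.57 and 0.41. The hour of collection was not given in the sources used here. Immediate early genes, which respond within minutes to a stimulus, varied between the WT arrays. Egr1 read 5.19 on chow, 3.69 after 3 and 7.65 after 2 weeks of fructose in WT livers, and 5.25 in null livers, and the 2-week WT level was the high one. Klf10 read 5.49, 5.43, 6.01 and 4.41, lowest in the null pool. Of 18 such genes Jun was higher and Egr1 and Klf10 lower. Fos stood at 0.52 with its WT level floored, and Dusp1 at -0.65. Between the WT fructose pools 3 of 17 were at least 2-fold lower at 3 weeks.

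Lists of core liver functions held few genes past 2-fold, beside 2.03% higher and 1.43% lower of all assessed genes. A short list with no gene past 2-fold is near that share. None of 72 oxidative phosphorylation genes passed 2-fold, with differences from -0.74 to 0.54 and a median of 0.04. None of 20 lipoprotein genes, 27 genes of amino acid breakdown, 8 of the urea cycle and 16 of purine and uric acid metabolism did. Apob and Apoa4 stood at -0.04 and 0.17, Cps1, which starts the urea cycle, at 0.14, Agxt at 0.80 and Uox, which breaks down uric acid, at -0.52. Genes of the pericentral zone had a median of 0.23 over 13 and those of the periportal zone -0.08 over 10, with none past 2-fold. Glul, glutamine synthetase, stood at -0.02 and Cyp2e1 at 0.04. Of 20 genes of fatty acid oxidation and ketogenesis Pdk4, a brake on glucose oxidation, was higher (1.30) and Vnn1 lower (-1.25). Cpt1a, which admits fatty acids to mitochondria, stood at 0.04 and Ppara at -0.43. Acot2, a mitochondrial thioesterase, read 8.83, 6.01, 9.14 and 10.90, highest in the null pool, and of 11 thioesterases it was the one higher by 2-fold while Acot10 was lower (-1.21, or -0.79 with its null level floored). Of 34 nuclear receptors Rarg was past 2-fold (1.08), and it fell under it floored (0.96), with centred arrays (0.98) and with the trend removed (0.92). Pparg, the fat cell receptor, stood at 0.68.

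Small nucleolar and Cajal body RNAs guide the chemical modification of ribosomal and spliceosomal RNA. This list was made after its values had been seen, so its counts are a description. Of 63 assessed genes 25 were lower in the null pool by 2-fold or more (22 with levels floored), none was higher, and 55 had a difference below 0, with a median of -0.65. Snora34 read 7.44 on chow, 7.76 after 3 and 7.61 after 2 weeks of fructose in WT livers, and 3.52 in null livers, a level at the floor. Scarna6 read 7.05, 8.41, 7.49 and 3.68, Snora16a 8.22, 8.09, 8.10 and 4.98 and Snord22 8.91, 8.71, 8.97 and 5.94. For all 4 the WT arrays lay well above the null pool whatever the diet. Others did not share this, such as Snord99, at 0.04, and Snora33, at -0.10. Between the WT fructose pools 4 of 65 were higher and 2 lower at 3 weeks, with a median of -0.01. Against the 3-week WT pool 28 of 63 and against chow 20 of 60 were lower in null livers by 2-fold or more, which enters each of these differences. Rpph1, the RNA of ribonuclease P, read 9.72, 10.06, 9.58 and 7.22, also lowest in the null pool. Rn7sk, another abundant small RNA, read 12.29, 12.30, 12.30 and 12.26. Rpph1 and Rn7sk were picked after their values were seen. Of 106 microRNA genes, also listed after values were seen, 5 were higher and 5 lower, with a median of -0.11, and the gene of Mir122, the main liver microRNA, stood at 1.25. With levels floored 1 was higher and 3 lower. Without the small RNA genes 231 genes were higher and 136 lower.

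**Figure D5:**
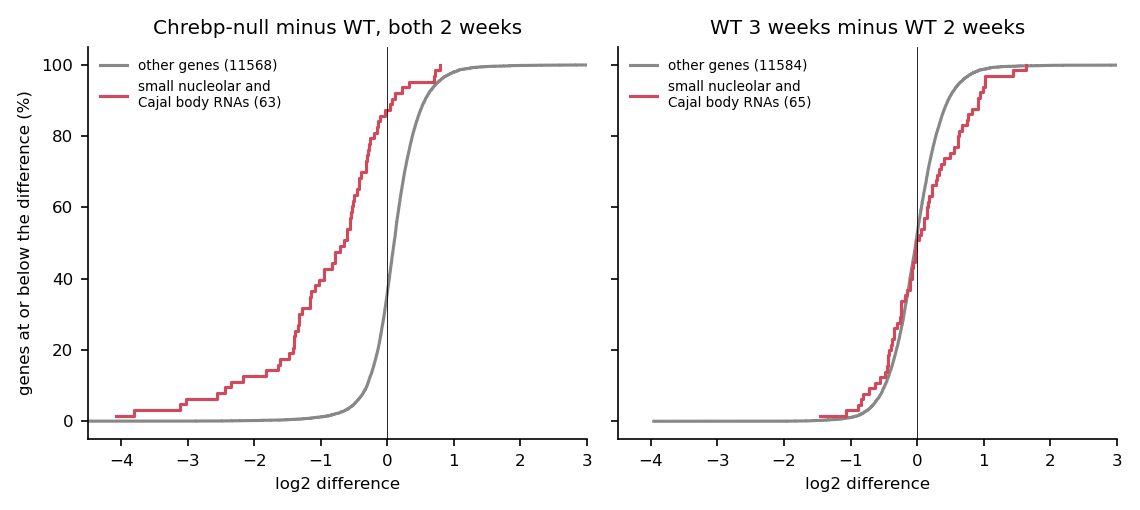
Cumulative share of genes (vertical axis, percent) at or below each log2 difference (horizontal axis) for small nucleolar and Cajal body RNAs (red) and all other assessed genes (grey). The left panel has the null minus the 2-week WT pool (63 and 11568 genes), where the red curve lies left of the grey one. The right panel has the 3-week minus the 2-week WT pool (65 and 11584 genes), where both curves reach the middle near 0.

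The other WT arrays give each difference a second reference. ChREBP targets had medians of -1.19 against the 2-week, -0.83 against the 3-week pool and -0.32 against chow. For cholesterol synthesis these were 1.19, 1.35 and 0.49, and for male-biased genes -1.12, -1.78 and -2.60. For single genes of sugar breakdown and fat synthesis in the null pool, Pklr stood -1.40 from chow, Khk -0.80, Fasn -0.21, Gapdh 0.09 and Acaca 0.37. Rgs16, which switches off G protein signals, stood -3.72 from chow. Sprr1a stood 6.94 from chow, Abcc4 2.41 and Sqle 0.67. Pklr and Khk thus lay below their chow levels in null livers, Fasn slightly below, Gapdh near its chow level and Acaca above.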

How the data were processed

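Liver RNA from pools of mice was hybridised to 1 Affymetrix array per group, 4 arrays in all. The deposited values are log2 expression, made by the authors with RMA from the affy package, per the submitters' processing notes, in versions not given in the sources used here. Probe sets were named through the platform annotation, and for each gene the single-symbol probe set with the highest mean level was used. Older symbols were updated through RefSeq. Genes entered a comparison if the higher level reached the median gene (3.52), and were called at 2-fold, with no test since no group has a replicate. The named genes are Mlxipl, the 20 largest floored differences in each direction and up to 6 members per list. Small non-coding RNAs and genes with no described function were left out of the ranking that gave the 20. Members named beyond these were picked after their values were seen. The members and 75 lists were chosen with earlier results of these data known, and 2 lists of small RNAs were added after values were seen. Depth has no counterpart on arrays, and 1 array per group limits the precision. Alternatives changed the floor, scaling, threshold, probe-set rule and reference. The counting steps were tested on simulated data. Python 3.11.15, numpy 2.4.6, pandas 2.3.3, statsmodels 0.14.6 and matplotlib 3.10.9 were used.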

Additional observations from a re-analysis of the deposited data

Results flagged for a closer look

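Probe sets that carry no gene symbol, or several, stand outside the comparison and still held differences. Of 5611 probe sets with no symbol that reached the floor, 420 were higher in the null pool by 2-fold or more and 509 lower (16.6%). Between the WT fructose pools 507 of 5725 such probe sets were higher and 525 lower at 3 weeks (18.0%). Of 828 probe sets with several symbols 27 were higher and 21 lower in the null pool (5.80%), beside 30 and 9 of 844 between the WT fructose pools (4.62%). These comparisons share the 2-week WT array.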

How the results depend on the processing

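No paired analysis was possible because each group is 1 array. With a floor at the upper quartile 87 genes were higher, 110 lower and 1 replication gene past 2-fold. With centred arrays 155 genes were higher, and with the trend with level removed 140, with 3 replication genes. A 1.5-fold threshold gave 1065 higher and 441 lower genes, 13 NRF2 targets, 14 ATF4 response genes and 12 replication genes. A 3-fold threshold gave 46 and 54 genes, 7 ChREBP targets, 1 fatty acid synthesis gene, 5 cholesterol synthesis genes, 4 ATF4 response genes and 1 replication gene. With the 3-week WT array as reference 398 genes were higher, 3 fatty acid synthesis genes were past 2-fold and 16 NRF2 targets, and with the mean of both WT fructose arrays 11. Of 242 named genes 126 were at least 2-fold changed, and the 3-week reference turned the sign of 8 of these 126. They were Sult2a1 (-0.85), Egr1 (1.56), Inhba (0.12), Bcl6 (0.25), Akr1c18 (-1.05), Sult2a2 (-1.07), Sult2a5 (-0.064) and Ect2 (-0.0005). Another 20 of the 126 kept their sign and fell under 2-fold, and 18 of the other named genes moved past it. Sign changes among named genes under 2-fold were not counted. Of the named genes 9 fell under 2-fold with centred arrays, and 9 with the trend removed. The cause was not tested. Leaving out small RNAs was chosen after seeing the data. One array per group gives no estimate of the spread, and genes near the floor are read least precisely.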
